A study of Mus musculus with 3 samples.

Results

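A group of 9 genes known from the epicardium and the coelomic mesoderm was followed in mouse embryoid bodies lacking Hopx: Wt1, Tcf21, Tbx18, Osr1, Foxf1, Prrx1, Msln, Upk3b and Tbx4. They were chosen by symbol, and every non-control probe whose accession maps to one of them was taken, which gave 11 probes for the 9 genes, of 32176 genes or unnamed accessions on the arrays. Of the 9, 8 could be tested, and 6 of these were higher in Hopx-null than in Hopx-heterozygous cultures (Tbx4, Tcf21, Prrx1, Foxf1, Upk3b and Wt1) while 0 were lower. The sizes ran from 8.13-fold for Tbx4 to 1.66-fold for Wt1, and Osr1 and Msln did not pass. Tbx18 was left out of the test by the filter on dim probes. Across all genes tested, 60.3% were called, 30.2% higher and 30.1% lower in null cultures, so a call by itself is common on these arrays.

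The epicardium is the mesothelial sheet that covers the heart. It grows from the proepicardium, a cluster of cells in the coelomic lining near the septum transversum, and its cells later enter the heart wall and become fibroblasts and mural cells of the coronary vessels. The coelomic lining itself comes from lateral plate mesoderm, which also supplies gut mesenchyme and limb buds. None of the 9 genes is found in epicardium alone.

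The cultures of interest were Hopx-/- embryoid bodies (null, with both copies inactivated), and the cultures they were set against were Hopx+/- embryoid bodies (heterozygous, with 1 working copy of Hopx), all mouse and all taken on day 8 of a cardiac protocol. The product of Hopx is an unusually small homeodomain protein that does not bind DNA, and the series concerned its part in commitment to muscle. Both genotypes came from stem cells derived from blastocysts with LIF and a MEK1 inhibitor and kept on feeder fibroblasts. They spent 2 days in hanging drops and 2 days in suspension, and were then plated in medium with VEGF, bFGF, FGF10, ascorbic acid and Glutamax. Each of 3 2-colour Agilent arrays carried RNA of 1 null culture in competition with 1 heterozygous culture, as biological replicates 1 to 3. The labels do not say how many stem cell lines stood behind the replicates, so genotype and line cannot be told apart and p-values measure the spread between these 3 arrays.

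The share of the 43020 non-control spots that cleared background was 61.9% to 72.9% per channel. Precision is set by there being 3 arrays. The labels put the null culture in Cy5 on every array, but the Cy5 over Cy3 ratios of replicate 3 ran against those of replicates 1 and 2 over the kept probes (r = -0.90 with each, against r = 0.94 between replicates 1 and 2). Its dyes were turned, as the authors' deposited value table turns them, and its direction is therefore not settled by the labels. Every call below rests on this turn: with the dyes of replicate 3 as labelled, limma called 0 genes (62 at an unadjusted p under 0.05). Hopx, read first as a check of genotype, was lower in null cultures on every array, with log2 ratios of -2.98, -2.97 and -3.45 (replicate 3 turned) for its brighter probe and -2.36, -2.29 and -2.94 for the other. All signed values below are log2 ratios of null over heterozygous cultures unless called intensities. Intensities are normalized log2 signals, and SE is the moderated standard error of limma over 3 arrays. Adjusted p is limma's, by Benjamini-Hochberg over all probes kept. RNA came from whole cultures, so fewer cells of a type and less RNA per cell cannot be told apart.

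Tbx4, a T-box factor of hindlimb bud, lung mesenchyme and allantois, showed the largest difference among the 9. Its intensity was 8.76, 10.12 and 10.45 in null cultures of replicates 1, 2 and 3, against 6.38, 6.92 and 6.97 in heterozygous cultures. Null and heterozygous values did not overlap, and replicate 1 was low in both genotypes. The ratios were 2.38, 3.20 and 3.48, with a mean of 3.02 (SE 0.18, adjusted p = 2.93e-06), which placed Tbx4 at the 99.9th percentile of the genes tested. The heterozygous signal was well above background on 2 of 3 arrays. In replicate 1 the raw foreground was 414 over a local background of 35 in the null channel, and 38 over 32 in the heterozygous channel. The size of the rise rests on how that low signal is treated, with 4.88 from the scanner software's processed signals. The ordinary t statistic, which shares no spread between probes, gave adjusted p = 0.0527.

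Tcf21 and Prrx1 rose by about the same factor. Tcf21, a basic helix-loop-helix factor of epicardium and cardiac fibroblasts, had intensities of 8.15, 7.54 and 7.94 in null cultures and 6.84, 6.46 and 6.55 in heterozygous ones. Its ratios of 1.31, 1.09 and 1.39 averaged 1.26 (SE 0.09, adjusted p = 8.62e-06), a 2.40-fold higher signal, and both channels were above background on all arrays. Prrx1, a paired-related homeodomain factor of limb and lateral plate mesenchyme, was read by a pair of probes designed on different transcripts. The brighter gave intensities of 7.22, 7.74 and 7.62 in null cultures, against 6.52, 6.57 and 6.33 in heterozygous cultures. That was a mean ratio of 1.06 (SE 0.12, adjusted p = 9.92e-05). The dimmer probe had ratios of 0.97, 0.59 and 1.46 with a mean of 1.01 (SE 0.15, adjusted p = 0.000429), and the probes stood 2.08-fold and 2.01-fold higher in null cultures. In heterozygous cultures the brighter Prrx1 probe was well above background on 2 of 3 arrays and the dimmer on 1.

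For both genes the size depended on the background method more than on any array. The scanner's processed signals gave 2.41 for Tcf21 and 2.69 for Prrx1. The authors' deposited table gave ratios of 0.857, 0.505 and 0.848 for Tcf21 and 0.711, 0.618 and 0.646 for the brighter Prrx1 probe, with means of 0.74 and 0.66. The direction was the same in each, while the ordinary t statistic left Prrx1 uncalled (adjusted p = 0.0761).

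The upstream sequences of these 3 transcription factors are shown because they rose most among the genes with an entry in the RefSeq promoter table (GRCm38.p6), which held 5 of the 9 (Tcf21, Tbx18, Prrx1, Upk3b and Tbx4). Each line gives the 250 bases before a transcription start, 5′ to 3′ on the gene's strand. Capitals mark matches, on either strand, to the core promoter box TATAAA, to the Gata factor motif AGATAA or to the E-box form CAGCTG. The other motifs searched, 8 in all, were the general E-box (CANNTG, which includes CAGCTG and is left in lower case elsewhere), a T-box half-site (TCACACCT), a forkhead site (TGTTTAC), an Egr site (GCGGGGGCG) and the CArG box of serum response factor. The Tbx4 window lies at chr11:85896515-85896764, plus strand, the Tcf21 window at chr10:22820144-22820393, minus strand and the Prrx1 window at chr1:163313651-163313900, minus strand, and the Tbx4 and Prrx1 starts lie inside the annotated span of the gene.
Tbx4: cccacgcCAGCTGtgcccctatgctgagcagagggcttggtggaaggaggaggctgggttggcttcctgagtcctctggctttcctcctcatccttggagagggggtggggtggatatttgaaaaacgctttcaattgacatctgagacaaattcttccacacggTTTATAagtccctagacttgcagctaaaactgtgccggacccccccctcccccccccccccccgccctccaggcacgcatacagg
Tcf21: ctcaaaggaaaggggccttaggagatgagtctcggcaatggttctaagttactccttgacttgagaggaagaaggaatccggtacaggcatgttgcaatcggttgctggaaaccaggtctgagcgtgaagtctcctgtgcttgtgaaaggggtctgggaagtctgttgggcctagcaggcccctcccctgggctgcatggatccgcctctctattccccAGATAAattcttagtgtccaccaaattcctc
Prrx1: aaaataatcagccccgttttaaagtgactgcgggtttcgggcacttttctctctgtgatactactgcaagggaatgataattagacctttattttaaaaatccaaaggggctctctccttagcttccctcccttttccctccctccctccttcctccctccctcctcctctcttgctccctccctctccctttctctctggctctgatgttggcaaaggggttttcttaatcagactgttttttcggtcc
The Tbx4 window held a TATA match from position -85 to -80 and a CAGCTG match from -243 to -238, counted back from the start. It also held the general E-box at CAATTG (-118 to -113) and CATCTG (-111 to -106), a motif found in 66.2% of promoters. Among 32851 promoters of the table, 12.4% held TATAAA and 13.0% CAGCTG in the same length. Tcf21 had a GATA match from -31 to -26, as did 9.99% of promoters anywhere in the window. None of the 8 motifs was in the Prrx1 window, which only says that these letters are not in these 250 bases. GC content was 58.4% in the Tbx4 window, 52.4% in the Tcf21 window and 47.6% in the Prrx1 window, at the 68.9th, 51.1st and 33.8th percentiles of all promoters (median 52.4%). Their CpG observed over expected was 0.285, 0.293 and 0.321, below the median of 0.374. The Tbx18 window had 0.836, the 83.7th percentile.

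**Figure D1:**
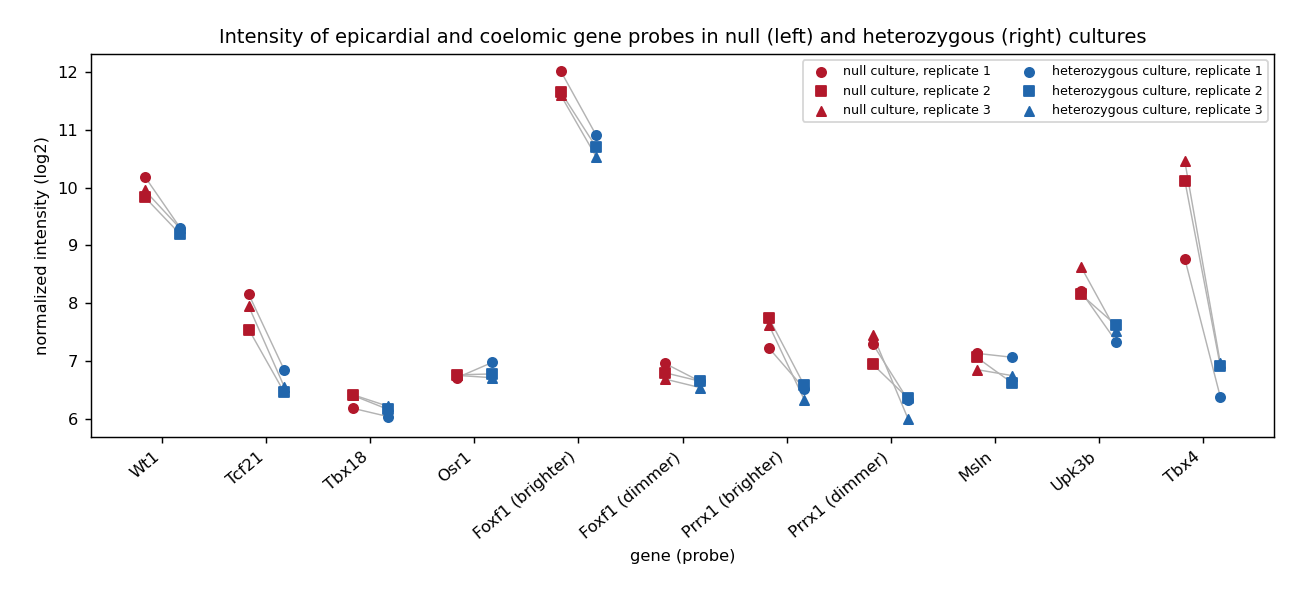
Normalized log2 intensity (vertical axis) of the 11 probes of the 9 genes (horizontal axis), with null cultures left and heterozygous cultures right, and a line joining the channels of each array. Tbx4, Tcf21, Prrx1, both Foxf1 probes, Upk3b and Wt1 have all 3 null points above all 3 heterozygous points, while Osr1, Msln and Tbx18 overlap.

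Foxf1 and Wt1 were the brightest of the group and had the smallest spread between arrays among those that rose. Foxf1, a forkhead factor of splanchnic mesoderm and allantois, had intensities of 12.02, 11.66 and 11.60 in null cultures against 10.91, 10.70 and 10.53 in heterozygous cultures. The ratios of 1.11, 0.96 and 1.07 gave a mean of 1.04 (SE 0.08, adjusted p = 1.43e-05), or 2.06-fold. Its bright probe kept its call with every alternative but replicate 3 as labelled, the ordinary t statistic included (adjusted p = 0.0355). A dim Foxf1 probe, at a mean intensity of 6.71, gave 0.31, 0.15 and 0.15 and did not pass (mean 0.20, SE 0.08, adjusted p = 0.0663). Averaging both probes brought Foxf1 to 0.62, still called.

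Wt1, a zinc finger factor needed for epicardium, kidney and gonad, showed intensities of 10.19, 9.84 and 9.95 in null cultures and 9.30, 9.19 and 9.29 in heterozygous cultures. That gave ratios of 0.89, 0.64 and 0.66 with a mean of 0.73 (SE 0.09, adjusted p = 0.00016), a 1.66-fold rise. Null and heterozygous values were clear of each other on all arrays. By the ordinary t statistic Wt1 stood at adjusted p = 0.0525.

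The mesothelial surface proteins parted. Upk3b, a uroplakin of urothelium and of mesothelium, had intensities of 8.20, 8.15 and 8.63 in null cultures, against 7.33, 7.61 and 7.52 in heterozygous ones. Its ratios of 0.87, 0.54 and 1.12 averaged 0.84 (SE 0.11, adjusted p = 0.000294), or 1.79-fold, with adjusted p = 0.0887 by the ordinary t statistic. Msln, the mesothelial surface protein mesothelin, read 7.13, 7.06 and 6.85 in null cultures and 7.06, 6.61 and 6.74 in heterozygous cultures, which overlap. Its mean of 0.21 (SE 0.10, adjusted p = 0.105) left a 95% interval of -0.02 to 0.43, and without replicate 2 the mean was 0.086. The 0.84 of Upk3b lies outside that interval, although the Msln probe was dim.

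Osr1 did not pass, and Tbx18 was left out by the filter on dim probes. Osr1, an odd-skipped zinc finger factor of lateral plate and intermediate mesoderm, was above background in both channels on all arrays. Its intensities were 6.71, 6.76 and 6.75 in null cultures against 6.97, 6.77 and 6.71 in heterozygous cultures. The ratios of -0.27, -0.02 and 0.04 gave a mean of -0.08 (SE 0.09, adjusted p = 0.481) and a 95% interval of -0.29 to 0.13, with the sign turning to 0.012 without replicate 1. Tbx18, a T-box factor of proepicardium and sinus venosus, cleared background on 2 arrays in null cultures and on 1 in heterozygous cultures. Its foreground readings were 55.0, 65.0 and 73.0 over backgrounds of 41.5, 42.0 and 40.0 in null cultures, and 35, 37.0 and 56.5 over 31.0, 33.0 and 45.0 in heterozygous cultures. Without the filter on dim probes its ratio was 0.20 (SE 0.07, adjusted p = 0.0661), which did not pass, and the authors' deposited table gave it 0.014, 0.149 and -0.233.

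**Figure D2:**
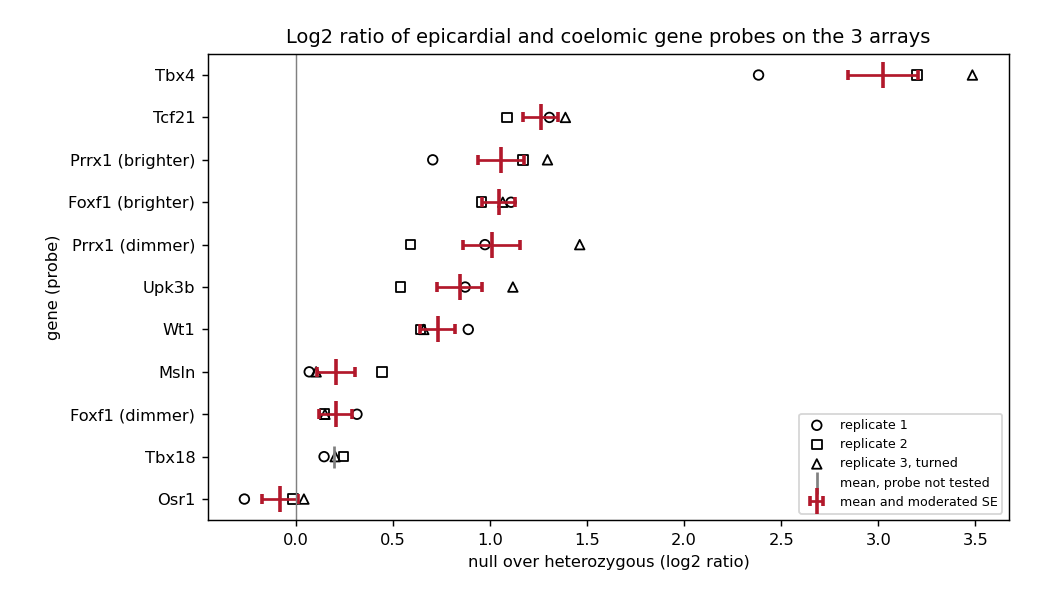
Log2 ratio of null over heterozygous cultures (horizontal axis) for each probe (vertical axis), with a symbol for each array and, where the probe was tested, the mean and moderated SE. Tbx4 stands at 3.02, the probes of Tcf21, Prrx1, Upk3b and Wt1 and the brighter Foxf1 probe lie between 0.73 and 1.26, and Osr1 lies at -0.08.

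Over the group, 6 of the 8 genes tested were higher, against 30.2% of all genes tested, and 4 of the 8 were higher by at least 2-fold, against 4.87%. The 2-fold count depends on the processing, with Prrx1 at 2.08-fold and Foxf1 at 2.06-fold. Below 2-fold were Tcf21 (0.74) and Prrx1 (0.66) in the authors' deposited values, and Foxf1 (0.62) with its probes averaged. With processed signals Upk3b was above it, at 1.25. The median of the 8 was 0.94, beside 0.00338 for all genes. All 3 null intensities lay above all 3 heterozygous intensities for 6 of the 8, against 26.3% of genes. Tbx4 and Prrx1 are in each of these counts, but they passed the filter on dim probes only through the null channel, where they were high. With both channels required above background, 4 of the 6 genes left were higher, against 5387 of 18062 genes. Since the genes were picked with earlier results of these data known, these shares describe the group and are no test of it. The ordinary t statistic called 2 of the 8, Tcf21 and Foxf1.

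**Figure D3:**
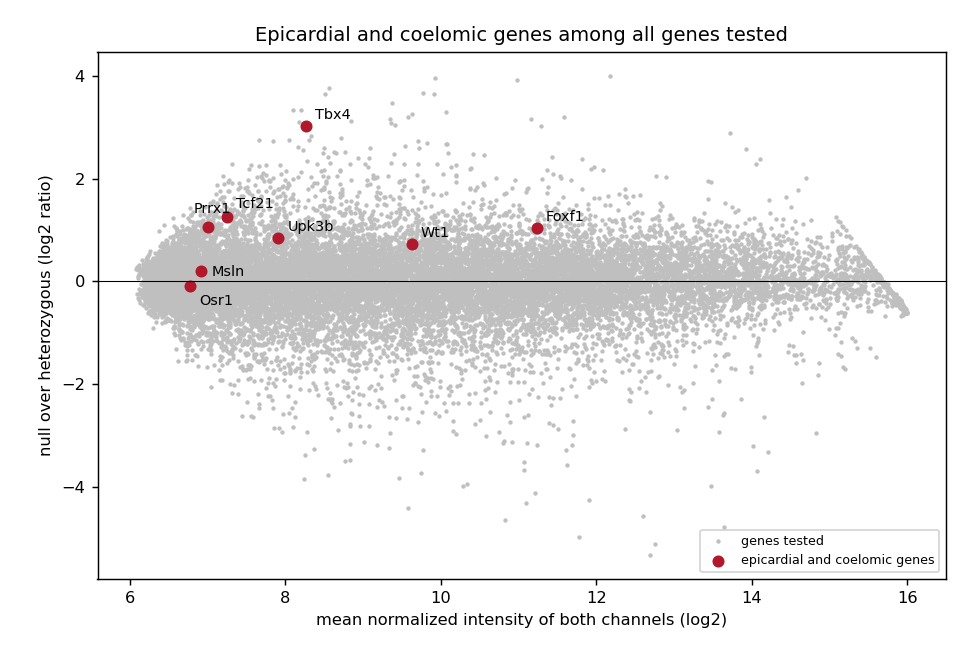
Mean log2 ratio of null over heterozygous cultures (vertical axis) against mean log2 intensity of both channels (horizontal axis) for every gene tested (grey) and the 8 tested epicardial and coelomic genes (red). Tbx4 at 3.02 lies near the upper edge, Foxf1 and Wt1 among bright genes, and Osr1, Msln, Prrx1 and Tcf21 among dim ones.

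Other genes of the epicardium and of mesothelium went both ways. Of 22 listed, 20 were tested, of which 4 rose and 10 fell, and the median was -0.18. That median was -0.51 with the scanner's processed signals, -0.33 with a normexp offset of 16 and -0.12 with no filter on dim probes or with both channels required above background. Aldh1a2, which makes retinoic acid in the epicardium, rose most at 2.51 (SE 0.10), with intensities of 10.37, 9.64 and 9.71 in null cultures against 7.65, 7.17 and 7.38 in heterozygous cultures. Rspo1, a secreted Wnt enhancer, rose by 0.99 (SE 0.09) and Scx, a factor of tendon and proepicardium, by 0.84 (SE 0.09). Krt18 and Krt7, keratins of simple epithelia and of mesothelium, fell by 1.45 (SE 0.10) and 1.23 (SE 0.09), and Tgfbr3, the Tgf-beta coreceptor betaglycan, fell by 1.44 (SE 0.13). Keratins are shared with endoderm, whose markers fell for 10 of 10 visceral genes (median -2.45) and 7 of 8 parietal genes (median -1.73). Their part in the fall of this list was not tested.

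Genes of signals known to act on epicardium, chiefly ligands, receptors and adhesion molecules, were mostly lower in null cultures. The 22 tested comprised 17 that fell and 2 that rose, and their median was -0.55. Centring arrays on the median in place of loess put it at -0.22, beside 0.23 for all genes. Rxra, a retinoid receptor, fell by 1.45 (SE 0.09), Pdgfa, a growth factor, by 1.38 (SE 0.09), and Ptch1, the Hedgehog receptor, by 1.03 (SE 0.08). A dimmer Rxra probe did not pass, at -0.06 (SE 0.08, adjusted p = 0.531). Tgfb3 rose by 0.96 (SE 0.08) and Fgfr1 by 0.44 (SE 0.10), with Fgfr1 uncalled in the authors' deposited values. The dimmer Fgfr1 probes gave 0.57 (SE 0.09), called higher, and 0.17 (SE 0.08, adjusted p = 0.107), which did not pass. Bmp4, which also patterns lateral plate, stood at -0.65 (SE 0.09).

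Lateral plate and splanchnic factors went both ways, with 5 higher and 9 lower of 19 tested (median -0.19, and -0.095 with dim probes included). When arrays were only median-centred the median was 0.18, beside 0.23 for all genes. Gata4, a zinc finger factor that heart, proepicardium and endoderm share, fell by 1.52 (SE 0.10). Isl1, a progenitor factor, fell by 1.06 (SE 0.09) and Tbx20, a cardiac T-box factor, by 1.04 (SE 0.13). Twist1, a mesenchymal factor, rose by 0.61 (SE 0.10) and Hand2, a basic helix-loop-helix factor of heart and limb, by 0.60 (SE 0.12).

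Other mesoderm derivatives held larger rises and falls. In the list of intermediate mesoderm, kidney and gonad, where Wt1 and Osr1 also act, 9 rose and 4 fell of 16 tested (median 0.28, turning to -0.012 with dim probes included, and 0.58 with processed signals). Hoxa11, a posterior Hox factor, had intensities of 10.05, 9.58 and 9.55 in null cultures against 6.86, 6.44 and 6.55 in heterozygous cultures, a rise of 3.11 (SE 0.08). Hoxd11 rose by 1.76 (SE 0.09) and Six2, a nephron progenitor factor, by 1.62 (SE 0.10). Their dimmer probes rose less, that of Hoxd11 by 0.85 (SE 0.08) and that of Six2 by 0.42 (SE 0.09). Cited1, a transcriptional coregulator of nephron progenitors that the embryonic heart also expresses, fell by 2.92 (SE 0.09), Podxl by 1.11 (SE 0.09) and Gdnf by 0.66 (SE 0.09).

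In the list of limb bud genes, where Tbx4 and Prrx1 also act, 6 rose and 3 fell of 15 tested, with a median of 0.000304 (0.22 when only median-centred, beside 0.23 for all genes). Leaving out 1 array gave limb bud medians of -0.054 without replicate 1, -0.034 without replicate 2 and 0.16 without replicate 3. Lhx2 and Pitx1, limb homeodomain factors, rose by 1.56 (SE 0.12) and 1.34 (SE 0.12), with Pitx1 known in mouse as an activator of Tbx4 in the hindlimb. Tbx3, a T-box repressor, fell by 1.51 (SE 0.08), Msx2 by 1.02 (SE 0.14) and Tbx5, the forelimb and heart counterpart of Tbx4, by 0.80 (SE 0.09). Of the genes named from these lists as changing most, the ordinary t statistic left Scx, Tgfbr3, Twist1, Hand2, Tbx20, Gdnf, Lhx2, Pitx1, Msx2, Col1a2, Lum, Snai2, Fgfr1, T and Tcf15 uncalled, and of the markers so named below Hba-x and Zic2.

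The mesenchyme that epicardium gives rise to was also mixed, with 9 rising and 6 falling of 20 tested (median 0.18, and 0.56 when only median-centred, beside 0.23 for all genes). The median was 0.53 in replicate 1, 0.0039 in replicate 2 and 0.21 in replicate 3, and 0.099 without replicate 1. Ddr2, a collagen receptor of fibroblasts, rose by 2.26 (SE 0.10), Col1a2, a type I collagen chain, by 1.59 (SE 0.16), and Lum, a matrix proteoglycan, by 1.17 (SE 0.20). A dimmer Ddr2 probe rose by 0.60 (SE 0.09). Fbln1, a matrix protein, fell by 1.60 (SE 0.09), Tgfb2 by 1.45 (SE 0.08) and Snai2, a factor of epithelial to mesenchymal transition, by 0.96 (SE 0.12). Feeder fibroblasts make most of these genes, and Prrx1 and Tcf21 are known in fibroblasts too. Of 10 fibroblast and feeder markers, 9 were tested (not Fap), of which 6 were higher and 1 lower. Their median was 0.95 in replicate 1, 0.17 in replicate 2 and 0.63 in replicate 3. Their summed signal over the 7 genes measured on all arrays was 46895 to 66543 in null cultures, against 21618 to 30918 in heterozygous cultures. Its part in the rise of Tcf21 and Prrx1 was not tested.

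**Figure D4:**
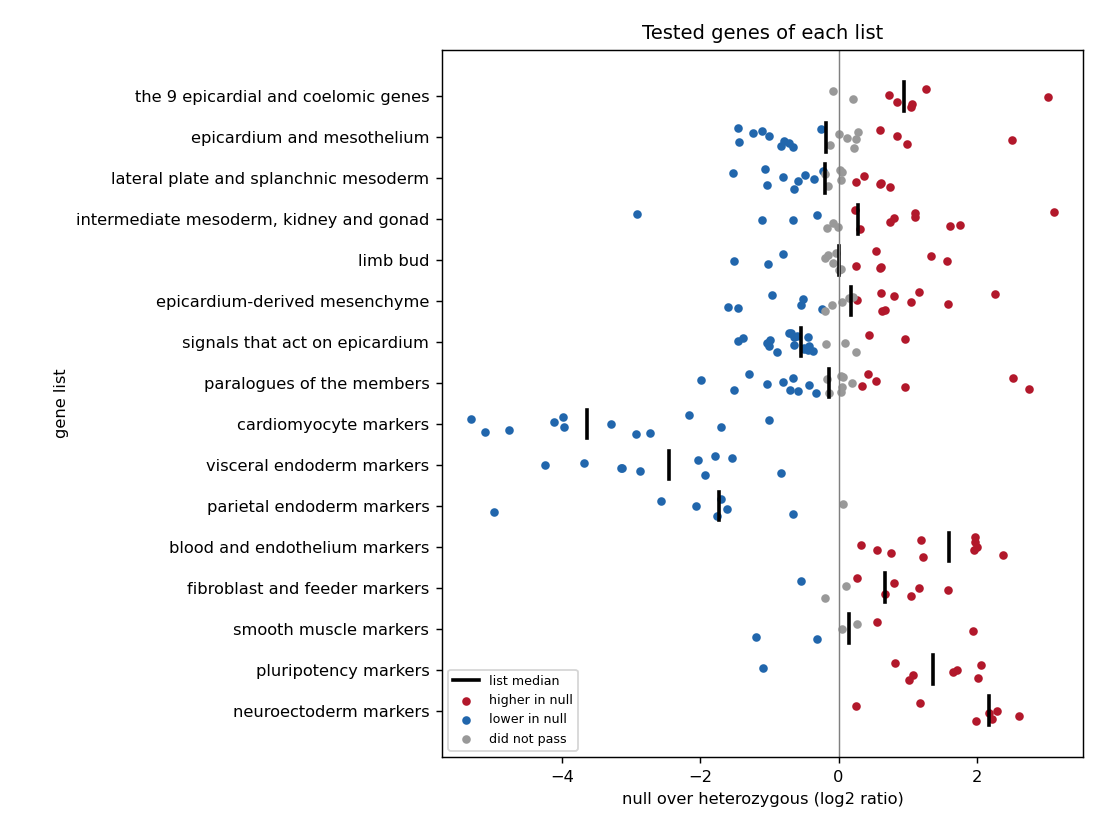
Log2 ratio of null over heterozygous cultures (horizontal axis) of every tested gene in the 9-gene group, 7 related lists and 8 marker lists (vertical axis), coloured by limma's call, with a bar at each median. The 9-gene group has a median of 0.94, the epicardium and mesothelium list -0.18, and cardiomyocyte markers -3.63.

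Relatives of the 9 genes went both ways. The list held T-box genes, nearest relatives of the other genes and further uroplakins. Of 23 tested, 6 rose and 10 fell (median -0.14). The falls include Upk1a (-0.43) and Upk1b (-0.65), uroplakins that are tetraspanins and not paralogues of Upk3b. Their median was 0.0051 when only median-centred, beside 0.23 for all genes, and 0.032 with dim probes included. It was -0.32 with both channels above background and -0.26 with processed signals. Among those that rose, T, Egr4 and Tbr1 passed the filter on dim probes only through the null channel, where they were high. Among those that fell, Upk3a passed only through the heterozygous channel. The T-box genes of early mesoderm, T and Eomes, also rose. T cleared background on 0 arrays in heterozygous cultures, so its level there is uncertain. Its ratios were 1.90, 3.26 and 3.08, with a mean of 2.75 (SE 0.22, adjusted p = 1.49e-05), or 6.72-fold. Taking the dimmest signal that cleared background as a floor left this mean unchanged, since the heterozygous signal of T lay above it on each array. The mean is a point estimate rather than a minimum, and it is open to dye bias. Eomes, with ratios of 2.22, 2.64 and 2.69, rose by 2.52 (SE 0.11). Tbx3, Tbx1 and Tbx5 fell by 1.51 (SE 0.08), 1.30 (SE 0.08) and 0.80 (SE 0.09), and Tbx2, the gene next to Tbx4 on chromosome 11, did not pass at 0.04 (SE 0.12, adjusted p = 0.775). Foxf2 fell by 0.59 (SE 0.09) where Foxf1 rose, Prrx2 stood at 0.03 (SE 0.10) where Prrx1 rose, and Tcf23, a relative of Tcf21, fell by 1.99 (SE 0.10) while Tcf15, a somite factor, rose by 0.97 (SE 0.10).

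Among the genes tested, those whose 3 array ratios lay nearest to those of Tbx4, by Euclidean distance over the 3 arrays, were Cer1 at 0.61, T at 0.63 and Sp8 at 0.76. Nearest to Tcf21 were Fbln5 at 0.0359, E2f2 at 0.0747 and Pheta2 at 0.0762. With 3 arrays this likeness mostly matches the size of the ratio. Cer1, a secreted Nodal and Bmp inhibitor, had ratios of 2.77, 3.67 and 3.57, and Fbln5, an elastic fibre protein, had 1.30, 1.11 and 1.36. Replicate 1 was the lowest ratio for Tbx4 and for these 3 neighbours of it.

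Markers of the other cells these cultures could hold moved as well. All 12 cardiomyocyte markers fell, led by Myh6 at -5.31 (SE 0.14), and their summed signal was 8289 to 14103 in null cultures against 195694 to 263739 in heterozygous cultures over 11 genes. Blood and endothelium markers rose for 10 of 10, with Hba-x at 2.38 (SE 0.18). Neuroectoderm markers rose for 7 of 7 tested (not Pax6), with Zic2 at 2.60 (SE 0.16). Pluripotency markers rose for 7 of 8, with L1td1 at 2.06 (SE 0.08), while Zfp42 fell by 1.09 (SE 0.08). These counts take the brightest probe of each gene. Dimmer probes of Kdr (-0.19), Sox1 (-0.02) and Zic1 (0.19) did not pass. A dimmer Nanog probe was called lower, at -0.34 (SE 0.09). Those of Hbb-y, Etv2 and Dppa4, and another of Nanog, also rose. Among smooth muscle markers 2 rose and 2 fell of 6, Actg2 rising by 1.95 (SE 0.10). Cubn at -4.25 (SE 0.10) and Srgn at -4.98 (SE 0.10) led the fall of visceral and parietal endoderm. Whether the share of such cells moves the 6 genes that rose was not tested.

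**Figure D5:**
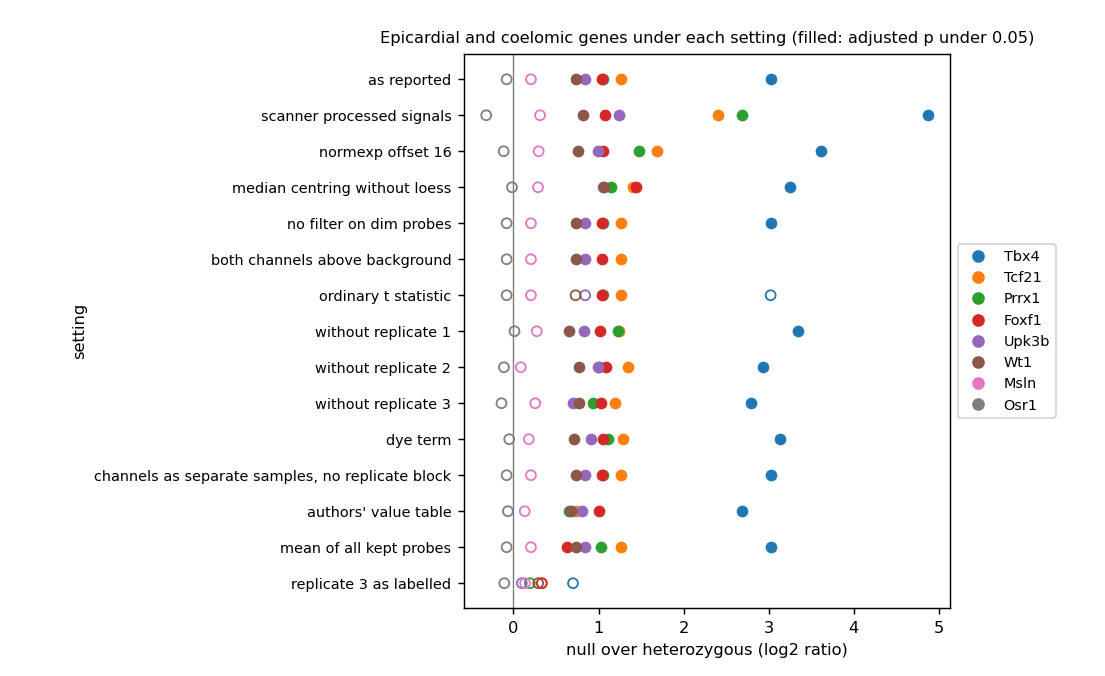
Log2 ratio of null over heterozygous cultures (horizontal axis) of the 8 tested genes under each setting (vertical axis), filled where adjusted p was under 0.05. Tbx4 runs from 2.68 in the authors' deposited values to 4.88 with processed signals where replicate 3 is turned, and with replicate 3 as labelled it stands at 0.70 and no gene is filled.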

How the data were processed

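Spot intensity values of both channels with local backgrounds were deposited. Per the file headers they come from Feature Extraction 11.5.1.1, whereas 8.5.1.1 stands in the submitters' processing notes. The authors also deposited a value table of unstated scale, centring and direction, read as log2 ratios from slopes of 0.943, 0.944 and -0.946 against the scanner's log10 ratio column (per the file headers Cy5 over Cy3, taken to log2) on bright spots, and with column medians of -0.10, -0.11 and 0.07.

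Foreground medians were corrected by normexp (offset 50) and normalized by loess within arrays in limma 3.58.1 (R 4.3.3), with control and outlier spots at weight 0 and the 9 genes read by 1 spot a probe on each array. Over 399 probes with 10 spots, the median SD between spots of an array was 0.0788 on the log2 scale. It was 0.0906 for the 95 of them with mean intensity from that of the dimmest of the 9 genes up to 8. A probe was kept if either genotype cleared background on each of the 3 arrays (24574 of 39429). Ratios were fitted by lmFit and eBayes and set against 0, and a gene took its brightest kept probe, giving 19814 genes or unnamed accessions. Channel intensities were taken after Aquantile. Accessions named 28025 probes (71.1%) through a RefSeq table (GRCm38.p6), while the design is on mm9. The limma fit alone was tested on simulated log2 ratios, which did not cover background correction, normalization, the turn of replicate 3, the filter or the promoter search.

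The 9 genes and the lists were chosen with earlier results of these data known. Named from each related list are the 3 called genes that rose most and the 3 that fell most, from each marker list the gene that changed most, and the 3 genes nearest to each of the 2 genes with the largest change, except 1 gene that is not reported here. Bmp4, Tbx2, Tbx5 among the paralogues, Foxf2, Prrx2 and Zfp42 were named after their values were seen, as were the promoter motifs. The same holds for the other uroplakins and for genes named only for a dimmer probe or the filter. Alternatives changed the background method, normalization, filter, variance, replicates, dye, pairing, values and probe rule.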

Additional observations from a re-analysis of the deposited data

How the results depend on the processing

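Tbx4, Tcf21, Prrx1, Foxf1, Upk3b and Wt1 kept their direction under every alternative that could test them, and their calls in all but the following. Without turning replicate 3, limma found 0 genes higher and 0 lower (62 at an unadjusted p under 0.05), 0 of the 9 genes and 0 and 0 genes of the related lists. Tbx4 then stood at 0.70, Foxf1 and Tcf21 at 0.33, Wt1 at 0.29, Prrx1 at 0.19 Upk3b at 0.10 and Hopx at -0.83, by construction, since a single array had the opposite sign. The ordinary t statistic called 1962 genes higher and 2033 lower, 2 of the 8 tested here, and 10 higher and 19 lower of the related lists, against 37 and 50. Values were unchanged in size but calls were lost for Tbx4 (3.02), Prrx1 (1.06), Upk3b (0.84) and Wt1 (0.73), and for 17 of the 46 other genes named as changing most in their lists. With arrays centred on the median in place of loess, the median gene stood at 0.23, 8543 genes were higher and 3007 lower (5980 and 5967 with loess), the related lists held 32 lower genes, and the setting turned the medians of lateral plate genes to 0.18 and of paralogues to 0.0051. Without the filter on dim probes the paralogues' median was 0.032 and that of intermediate mesoderm -0.012, and with replicate 3 as labelled the paralogues' was 0.0013. The authors' deposited values gave 3910 genes higher and 4250 lower, with 29 higher and 41 lower in the related lists. Leaving out each replicate in turn, Tbx4 ran from 2.79 to 3.34, Osr1 from -0.14 to 0.012, Msln from 0.086 to 0.27, and 6 of the 8 genes stayed called each time. With both channels required above background, Tbx4 and Prrx1 dropped out and 4 of the remaining 6 were called. When each channel was fitted as its own sample, with no replicate block, 6 of the 8 were called, with Tbx4 at adjusted p = 0.00132, while Twist1 and Fgfr1 lost their calls. The 3 arrays are already paired within the array. The cause of each change was not tested unless given. Signal over background limits Tbx18 and the heterozygous values of Prrx1 and Tbx4, which did not clear background on every array.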

Other observations

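Genes beside the 9 on their chromosomes, taken as the 2 nearest tested genes on each side in the RefSeq order, numbered 36, of which 13 rose, 5 fell and 18 did not pass, with a median of 0.07. Over all genes tested 30.2% were higher and 30.1% lower, and the difference was not tested. The examples here were chosen after their values were seen. Next to Foxf1 on chromosome 8, Foxc2, a forkhead factor of mesenchyme and vessels with 1 annotated gene between, rose by 1.30 (SE 0.09), with ratios of 1.20, 1.23 and 1.46, close to the 1.04 of Foxf1. That intervening gene, Mthfsd, rose by 0.31 (SE 0.08). On chromosome 9 with Tbx18, with 9 annotated genes between, Nt5e, the ecto-nucleotidase CD73 of mesenchymal cells, rose by 2.14 (SE 0.11), while Tbx18 itself did not clear the filter. On chromosome 12 with Osr1, Kcns3, a potassium channel subunit with 12 annotated genes between, rose by 1.14 (SE 0.09), and Rdh14, a retinol dehydrogenase with 7 between, fell by 0.61 (SE 0.09). Upk3bl, the relative of Upk3b that lies next to it on chromosome 5, did not pass at 0.22 (SE 0.10, adjusted p = 0.0751), although the probes of such near copies may share signal. Rcn1, with 1 annotated gene between it and Wt1 on chromosome 2, fell by 0.92 (SE 0.11).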
